A study of Homo sapiens with 6 samples.

Results

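Expression of 8 genes of antigen processing was measured by RNA sequencing in U251 cells, a long-established line grown from a human glioblastoma. The genes were taken by name from the deposited tables: PSMB8, PSMB9 and PSMB10, PSME1 and PSME2, ERAP1 and ERAP2, and NLRC5. All 8 names matched 1 row each, so the set holds 8 of the 42307 genes listed, and all 8 passed the filter on low counts. Wild-type U251 cells had been transfected with plasmid DNA at 1 ug per well, either a negative control (3 libraries) or one that overexpresses STING (3 libraries), and RNA was taken on day 3. STING, encoded by STING1, is the adaptor that passes on the signal of cytosolic DNA sensing. The labels name neither the promoter on the plasmid nor the share of cells that took it up, and they do not say whether replicates were separate cultures. A difference between groups is therefore judged against the spread between these libraries, which need not be that between separate cultures. In bulk RNA more cells responding and more RNA per cell cannot be told apart.

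Proteasomes cut cytosolic proteins into peptides, some of which MHC class I molecules display to T cells. When cells see interferon, newly built proteasomes take up PSMB8, PSMB9 and PSMB10 in place of the constitutive catalytic subunits PSMB5, PSMB6 and PSMB7. The resulting immunoproteasome cuts more often after residues that suit class I binding. PSME1 and PSME2 form a ring that caps the proteasome core and opens it. ERAP1 and ERAP2 are aminopeptidases that trim the front end of peptides in the endoplasmic reticulum. NLRC5 is a transactivator of the class I genes and of several genes around them.

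The promoters are shown first because these genes are known as interferon targets and the printed stretches show where the letters of an interferon-stimulated response element (ISRE) lie. RefSeq windows of 250 bases before to 50 after a start site (GRCh38.p14) were at hand for 7 of the 8 genes. NLRC5 had no entry. The ISRE letters, GAAA and GAAA with any 2 bases between them, were searched on both strands and occurred in the windows of 6 of these 7 genes, against 3.57% of all 35116 promoter windows. This form overlaps the binding sites of several interferon regulatory factors. ERAP1, ERAP2 and PSMB8 have 2 windows each, and counted by window the match was present in 6 of 10. Among 42 other proteasome genes with a window, drawn from the constitutive core, the regulatory particle, assembly factors and other activators, 3 held a match. Of the constitutive catalytic subunits only PSMB5 had a window, without a match, and PSMB6 and PSMB7 had no entry. Among 11 genes of class I chains and peptide loading with a window, 5 held a match. The letters were thus not particular to the set. A match describes the letters in the window and shows neither binding nor its absence.

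The stretches from 100 bases before to 30 after the start are printed below, each in its direction of transcription. Capitals mark the ISRE letters, and in PSMB8 also the letters TTCNNNGAA of a gamma-activated site (GAS), which 7.66% of all windows hold. The PSMB8 stretch lies on the minus strand at chr6:32844018-32844147, around the second of its 2 starts. PSMB10 lies on the minus strand at chr16:67936821-67936950, PSME1 on the plus strand at chr14:24136094-24136223 and PSME2 on the minus strand at chr14:24146581-24146710. ERAP1 lies on the minus strand at chr5:96807916-96808045 and ERAP2 on the plus strand at chr5:96876400-96876529, each around the second start.
PSMB8: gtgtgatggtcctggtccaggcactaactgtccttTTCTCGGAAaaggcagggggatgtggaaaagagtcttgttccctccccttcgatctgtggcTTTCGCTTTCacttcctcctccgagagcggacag
PSMB10: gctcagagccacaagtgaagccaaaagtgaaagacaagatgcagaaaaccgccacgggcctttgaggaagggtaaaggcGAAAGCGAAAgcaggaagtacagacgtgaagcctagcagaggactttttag
PSME1: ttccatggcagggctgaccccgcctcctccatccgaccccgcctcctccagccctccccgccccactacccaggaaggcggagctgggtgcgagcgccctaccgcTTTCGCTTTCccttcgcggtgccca
PSME2: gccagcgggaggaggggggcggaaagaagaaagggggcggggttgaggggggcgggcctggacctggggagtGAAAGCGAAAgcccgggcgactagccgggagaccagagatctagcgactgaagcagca
ERAP1: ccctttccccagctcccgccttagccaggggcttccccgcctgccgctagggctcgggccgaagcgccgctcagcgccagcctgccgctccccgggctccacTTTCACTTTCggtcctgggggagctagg
ERAP2: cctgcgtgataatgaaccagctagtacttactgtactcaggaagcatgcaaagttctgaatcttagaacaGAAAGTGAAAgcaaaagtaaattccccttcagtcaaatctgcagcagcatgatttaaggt

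In each of these 6 stretches the match lies within 30 bases of the start. PSMB8, PSMB10, PSME1 and PSME2 share the same 10 letters, GAAAGCGAAA on one strand or the other, while ERAP1 and ERAP2 share GAAAGTGAAA. PSMB9 differs, since its own window holds no ISRE letters. Its start lies 488 bases from that of TAP1, which encodes a chain of the peptide transporter and is read the other way. The 150 bases before the TAP1 start (minus strand, chr6:32853705-32853854) lie between both starts and hold a pair of overlapping ISRE matches and 1 match to GGG and TTCC with any 3 bases between them, a form of the NF-kB site found in 6.52% of all windows. The nearer end of the ISRE letters lies 354 bases before the PSMB9 start. The other motifs searched were CCAAT, in 34.6% of all windows and in those of PSMB9 and ERAP1, and TGACNNNGC, the letters of the antioxidant response element (ARE), in 13.3% of all windows and in those of PSMB9, PSME1 and PSME2.
TAP1: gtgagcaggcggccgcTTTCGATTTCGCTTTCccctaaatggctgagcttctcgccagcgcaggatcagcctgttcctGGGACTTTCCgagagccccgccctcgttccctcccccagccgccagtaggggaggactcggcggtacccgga

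**Figure D1:**
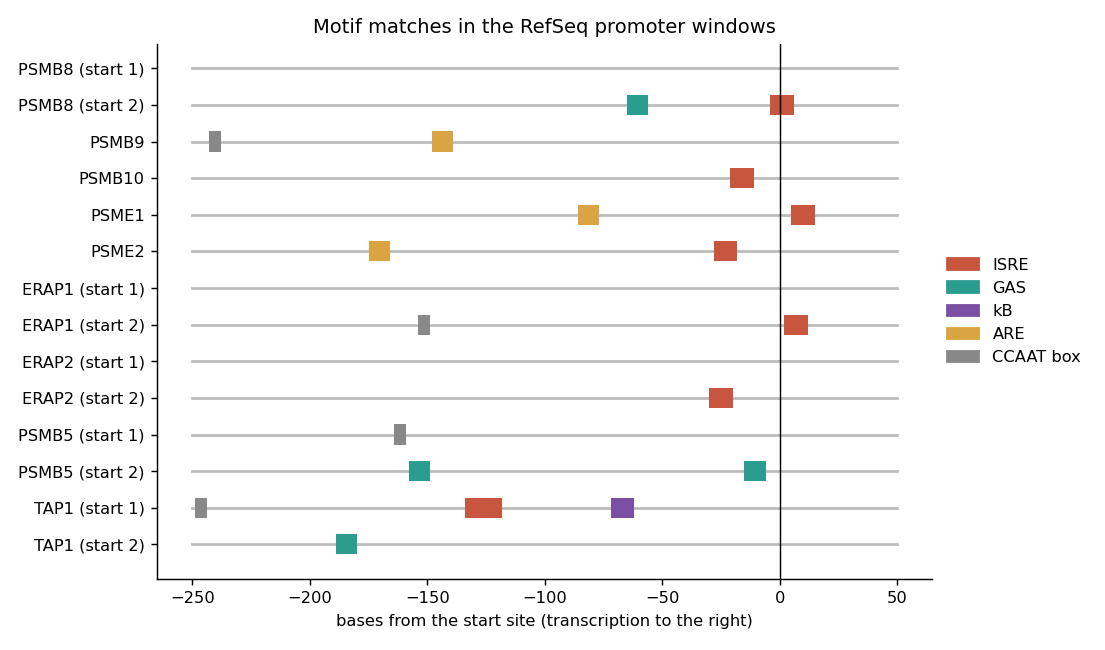
Matches to 5 motifs along the RefSeq promoter windows of the 7 genes with an entry and of PSMB5 and TAP1, drawn by distance in bases from each start site. Red boxes (ISRE) sit within 30 bases of a start of PSMB8, PSMB10, PSME1, PSME2, ERAP1 and ERAP2, and farther upstream of TAP1.

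Library totals ran from 71498790 to 76566375 counts. Levels are given as CPM, the counts scaled to a common library total with TMM factors. STING1, the gene on the plasmid, was higher in every STING library, with a log2 fold change of 0.60 (edgeR adjusted p = 0.00221). On log2(FPKM + 0.1) the estimate was 0.61 and did not pass (limma adjusted p = 0.0732). Of 8 glioma markers VIM, CD44, EGFR, NES and SOX2 averaged 120 CPM or more in the controls and GFAP 39.1 CPM, whereas S100B and OLIG2 lay at 0.25 and 0.188 CPM. All 8 glioma markers had negative estimates with the STING plasmid, of which 1 passed, while 50.2% of all tested genes had positive ones. The estimates of EGFR, OLIG2 and CD44 lay near 0, at −0.02, −0.04 and −0.05. GFAP, an astrocyte filament protein, fell from 39.1 to 21.5 CPM, by 0.86 on the log2 scale (edgeR adjusted p = 0.033). The levels of NES and VIM, filament proteins of immature glia, did not overlap between groups but did not pass, with estimates of −0.16 and −0.09. The 8 leukocyte markers, examined because leukocytes carry immunoproteasomes, summed to 5.27 to 11.9 CPM in the control libraries and 4.15 to 7.08 CPM in the STING libraries. PTPRC was the most abundant of them on average, at 4.81 CPM in the controls and 2.16 CPM in the STING libraries. CD3E averaged 0.402 CPM in the controls. The part of either marker list in the values of the 8 genes was not tested.

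With the STING plasmid 0 of the 8 genes passed the test over all genes (edgeR's quasi-likelihood test, Benjamini-Hochberg adjusted p under 0.05). Over all 21679 tested genes 1.49% passed, 0.604% higher and 0.89% lower. An unadjusted p under 0.05 was reached by 2 of the 8, PSMB8 and NLRC5, and by 14.4% of all tested genes. DESeq2 called 2 higher (PSMB8 and PSMB9), and 8.9% of the 11589 genes to which it gave an adjusted p. limma-voom called 0 of the 8 and 0.632% of all tested genes. Estimates were positive for 4 genes and negative for 4, with a median log2 fold change of −0.02, against 0.001 over all tested genes. The estimates did not share 1 direction. PSMB8, PSMB9 and NLRC5 had the positive estimates of any size, PSMB10 the most negative one, and the other 4 lay near 0.

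**Figure D2:**
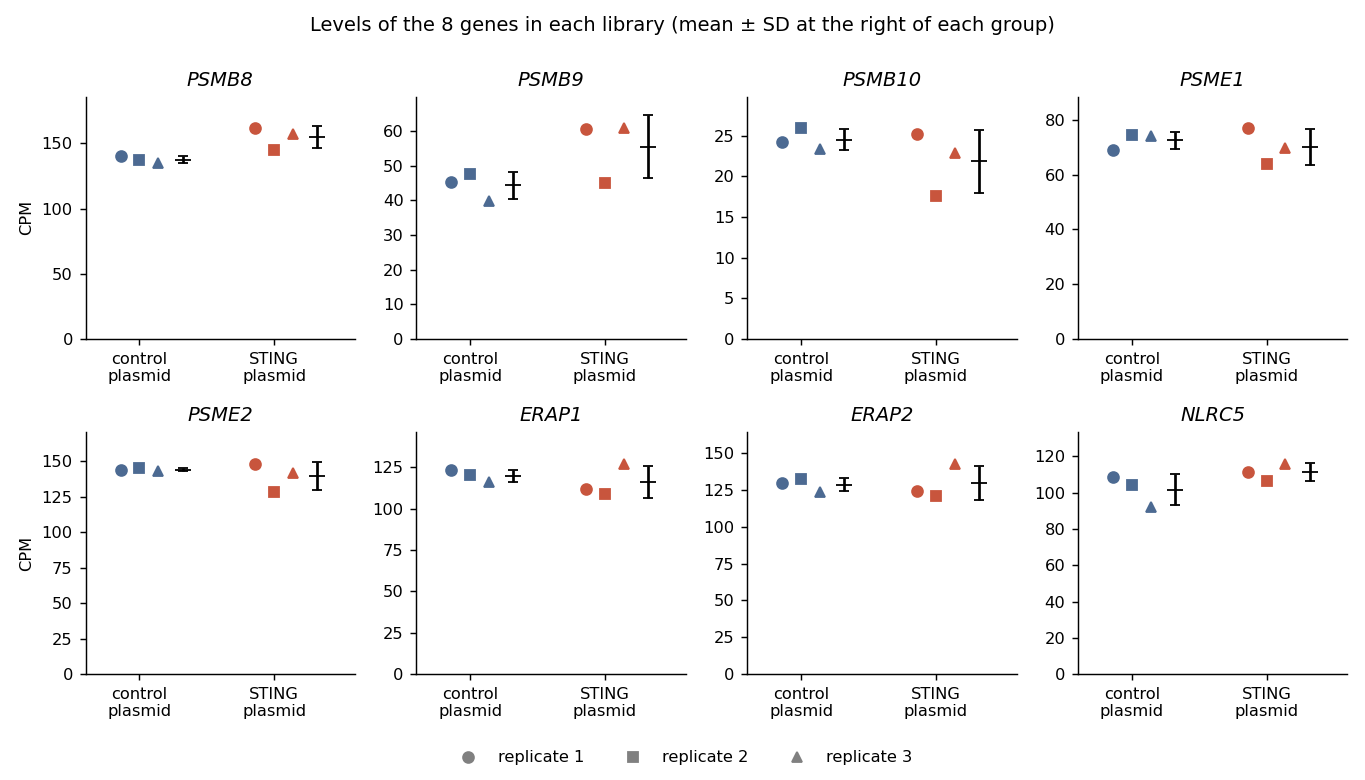
CPM of the 8 genes in each of the 6 libraries, with symbols for replicate numbers and the mean ± SD beside each group. PSMB8 is higher in all 3 STING libraries than in any control library, and in every panel the square (replicate 2) is the lowest STING library.

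PSMB8 (ENSG00000204264), whose product has the chymotrypsin-like activity of the immunoproteasome, lies at 32840717 to 32844679 of chromosome 6 (minus strand). Its level was 140.3, 137.0 and 135.0 CPM in control libraries 1, 2 and 3 and 161.7, 145.2 and 157.6 CPM in STING libraries 1, 2 and 3. The groups did not overlap. PSMB8 was the only one of the 8 genes for which this held, against 19.9% of all tested genes, 10.1% with the STING libraries higher and 9.73% with them lower. The means were 137 ± 2.67 and 155 ± 8.57 CPM (SD, n = 3 per group), a ratio of 1.13. On the log2 scale the estimate was 0.17 (SE 0.049, 95% interval 0.07 to 0.28, edgeR adjusted p = 0.0994). Over the alternative settings that kept all libraries the adjusted p ranged from 0.0178 to 0.219. It passed with DESeq2 (adjusted p = 0.0178), after GC and length correction (adjusted p = 0.0187), with scaling to total counts (adjusted p = 0.0416) and with the stricter filter on low counts (adjusted p = 0.0488). These last 3 settings called 2.24%, 1.77% and 4.58% of the genes they tested. With any 1 library left out it did not pass, at adjusted p of 0.071 to 0.305.

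PSMB9 (ENSG00000240065), which replaces PSMB6, had the largest estimate and the widest spread of the 8 genes. It was at 45.4, 47.7 and 39.9 CPM in the control libraries and at 60.6, 45.0 and 60.8 CPM in the STING libraries. STING libraries 1 and 3 lay well above every control library, whereas STING library 2 lay within the control range. The means were 44.3 ± 4.0 and 55.5 ± 9.10 CPM (SD, n = 3), with a log2 fold change of 0.32 (SE 0.14, 95% interval −0.01 to 0.66, edgeR adjusted p = 0.363). Without STING library 2 the estimate was 0.45 and passed (edgeR adjusted p = 0.0167), as did 0.42% of the genes tested without it. With any other library left out the estimate was 0.25 to 0.38 and did not pass (edgeR adjusted p of 0.501 to 0.582). DESeq2 called it with all libraries (adjusted p = 0.0211). No other setting that kept all libraries did, and over these settings the adjusted p ranged up to 0.571.

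The PSMB9 counts carry a limit of annotation. The deposited gene model runs on the plus strand of chromosome 6 from 32844136 to 32859851 and so spans all of TAP1 on the opposite strand, while the RefSeq start lies at 32854192. No source used here says that counting used strand, so reads of TAP1, at 368 ± 21.0 CPM in the controls, cannot be fully told apart from those of PSMB9. TAP1 itself was at 389, 369 and 347 CPM in the control libraries and 463, 399 and 468 CPM in the STING libraries (log2 fold change 0.27, edgeR adjusted p = 0.0564). The sum of PSMB9 and all models that it overlaps had a log2 fold change of 0.25 (edgeR adjusted p = 0.0532). This sum consists mostly of TAP1 reads, with PSMB8 at 137 CPM and PSMB9 at 44.3 CPM in the controls. The value of 0.25 is therefore not one of PSMB9 alone. PSMB8 overlaps PSMB9 and the antisense RNA PSMB8-AS1 at its 5′ end, and the sum of these had a log2 fold change of 0.20 (edgeR adjusted p = 0.0789).

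PSMB10 (ENSG00000205220), which replaces PSMB7, lies at 67934506 to 67936850 of chromosome 16 (minus strand). It was the lowest of the 8 in CPM, at 24.2, 25.9 and 23.4 in the control libraries and 25.2, 17.6 and 22.8 in the STING libraries. The groups overlapped, and STING library 2 was the only library under 20 CPM. Its log2 fold change was −0.16 (SE 0.11, 95% interval −0.41 to 0.08, edgeR adjusted p = 0.583), and −0.03 without STING library 2. After GC and length correction the estimate was −0.09. PSMB10 has a GC content of 62.0%, and STING library 2 had the steepest fall of level with GC content (−0.0738 on the log2 scale per 10% of GC). Their part in the PSMB10 value was not tested beyond that correction.

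The constitutive counterparts had small negative estimates. PSMB5, which holds the chymotrypsin-like site of the standard proteasome, was at 116 ± 1.95 and 111 ± 4.62 CPM, with a log2 fold change of −0.06. PSMB6 and PSMB7 had log2 fold changes of −0.13 and −0.03, and edgeR's adjusted p was 0.617, 0.275 and 0.83 for the 3 genes in this order. Neither the inducible nor the constitutive subunits passed the test one by one, so their balance was measured within each library, where it does not depend on scaling between libraries.

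**Figure D3:**
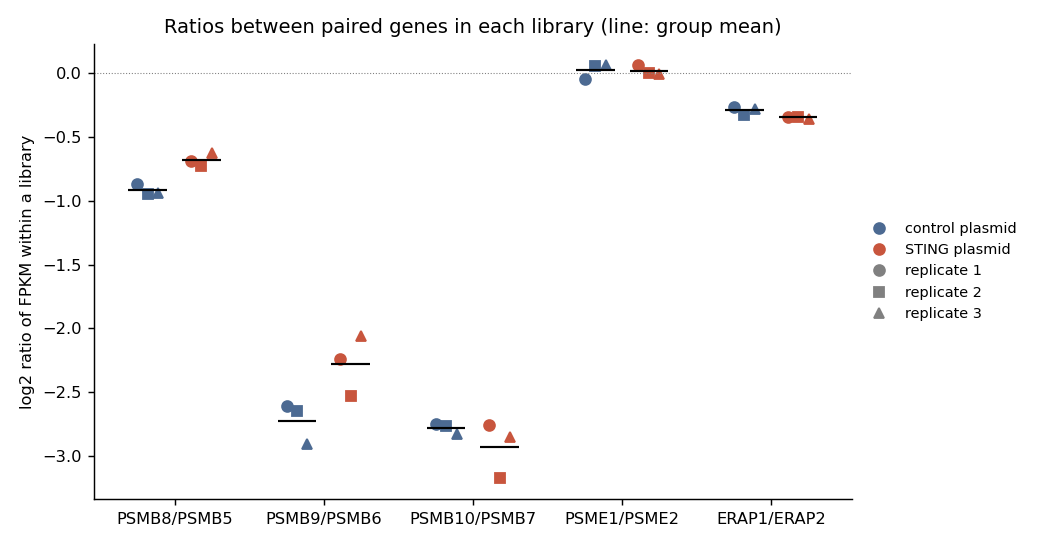
Log2 ratio of FPKM values within each library for 5 pairs of genes, with points for libraries and a line for each group mean. The ratios of PSMB8 to PSMB5 and of PSMB9 to PSMB6 are higher in all 3 STING libraries, and that of PSMB10 to PSMB7 is not.

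The estimates for the balance of the catalytic pairs did not share 1 direction, and no test compared the pairs with each other. FPKM values, which the authors scaled to gene length and depth, gave a PSMB8 to PSMB5 ratio of 0.549, 0.518 and 0.522 in the control libraries and 0.621, 0.602 and 0.646 in the STING libraries. All 3 STING libraries lay above all controls. The difference was 0.24 on the log2 scale (standard error 0.039). For PSMB9 to PSMB6 the ratio was 0.164, 0.160 and 0.133 in the control libraries and 0.212, 0.173 and 0.240 in the STING libraries, again without overlap, with a log2 difference of 0.44 (standard error 0.17). In STING library 2, where PSMB9 alone lay in the control range, the ratio to PSMB6 was thus above the controls. PSMB6 was at 113 CPM in that library, against 120, 129 and 130 CPM in the control libraries. The ratio there therefore also reflects a lower PSMB6, whose own log2 fold change was −0.13. The limit from TAP1 reads applies to this ratio as well.

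PSMB10 to PSMB7 went the other way, with ratios of 0.148, 0.147 and 0.141 in control and 0.148, 0.111 and 0.138 in STING libraries. These groups overlapped, and the log2 difference was −0.14 (standard error 0.13). Two-sided exact permutation tests gave p = 0.1 for the PSMB8 and PSMB9 pairs, the smallest value that 3 against 3 libraries allow, and p = 0.3 for the PSMB10 pair. Adjusted over the 5 ratios examined, these were 0.167, 0.167 and 0.375, so no ratio could pass a threshold of 0.05. GC content was near equal within the PSMB8 pair (53.3% and 52.8%) and the PSMB9 pair (53.2% and 54.9%) but not within the PSMB10 pair (62.0% and 48.0%). The ratio differences without each library in turn ran from 0.21 to 0.26 for the PSMB8 pair and from 0.34 to 0.57 for the PSMB9 pair. For the PSMB10 pair they ran from −0.23 to −0.02, the latter without STING library 2.

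As a share of each pair's FPKM, PSMB8 made up 34.6 ± 0.707% in control and 38.4 ± 0.841% in STING libraries (SD, n = 3). PSMB9 made up 13.2 ± 1.26% and 17.2 ± 2.31%, and PSMB10 12.7 ± 0.319% and 11.7 ± 1.52%. Cells with the control plasmid thus expressed all 3 inducible subunits, with the PSMB8 share the highest. The series holds no untransfected cells, so the level without plasmid DNA is not known. The shares depend on the length assumed: the deposited FPKM imply a length of 3.77 kb for PSMB8, against a mean GENCODE transcript of 1.31 kb. With GENCODE lengths the control shares were 44.4% for PSMB8, 18.7% for PSMB9 and 9.57% for PSMB10, and with the STING plasmid 48.5%, 23.9% and 8.79%. A fixed length cancels out of the differences in log2 ratio, but not out of those in share.

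For the activator genes PSME1 and PSME2 no difference beyond the spread between libraries was detected. PSME1 (ENSG00000092010, chromosome 14, 24136163 to 24138967, plus strand) was at 68.9, 74.5 and 74.0 CPM in the control libraries and 76.9, 63.8 and 69.6 CPM in the STING libraries. Its log2 fold change was −0.05, with a 95% interval of −0.18 to 0.09 (edgeR adjusted p = 0.829). PSME2 (ENSG00000100911, chromosome 14, 24143362 to 24147570, minus strand) was at 144, 145 and 143 CPM in control libraries, the narrowest spread of the 8 genes, and at 148, 129 and 141 CPM with the STING plasmid. The log2 fold change was −0.05, with a 95% interval of −0.16 to 0.07 (edgeR adjusted p = 0.785).

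STING library 2 was the lowest for both activator genes, and without it both estimates turned slightly positive, to 0.016 for PSME1 and 0.0095 for PSME2. The products of both genes join in 1 ring, and their FPKM ratio was close to 1 in every library, from 0.966 to 1.05, with a log2 difference of −0.002 between groups. That equality holds on the deposited length scale only, since PSME1 made up 50.4% of the pair in the controls by FPKM and 33.4% with GENCODE lengths. PSME3, which forms a related cap found in the nucleus, was at 276 ± 4.21 and 278 ± 14.9 CPM (log2 fold change 0.01, edgeR adjusted p = 0.974). PSME2 overlaps RNF31 and AL136295, and summed with them it had a log2 fold change of −0.01. Rows of 2 PSME2 pseudogenes never exceeded 0.252 CPM.

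ERAP1 and ERAP2 lie side by side on chromosome 5 and are transcribed in opposite directions. ERAP1 (ENSG00000164307, 96760810 to 96808100, minus strand) was at 123, 120 and 116 CPM in the control libraries and 112, 109 and 127 CPM in the STING libraries. STING libraries 1 and 2 lay below all controls and STING library 3 above them, and the log2 fold change was −0.05 (95% interval −0.17 to 0.07, edgeR adjusted p = 0.805). It ran from −0.12 without STING library 3 to −0.003 without STING library 2 and was −0.09 after GC and length correction. ERAP2 (ENSG00000164308, 96875986 to 96919703, plus strand) was at 130, 132 and 123 CPM in control libraries and 124, 121 and 143 CPM in STING libraries. STING library 3 was the highest of all 6 for both genes. The ERAP2 estimate was 0.01 (95% interval −0.12 to 0.14, edgeR adjusted p = 0.973), and its sign changed after GC and length correction.

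The ratio of ERAP1 to ERAP2 was 0.831, 0.795 and 0.824 in the control libraries and 0.788, 0.789 and 0.780 in the STING libraries. These groups did not overlap, although the log2 difference was only −0.05 (standard error 0.020, two-sided exact permutation p = 0.1, adjusted 0.167 over 5 ratios). In STING library 3, where both genes were high, the ratio stayed with those of the other STING libraries. ERAP1 overlaps the 3′ part of CAST, which was at 389 CPM in the controls, against 120 CPM for ERAP1. The sum of ERAP1 with its overlapping models, mostly CAST, had a log2 fold change of −0.04. GC content was 45.6% for ERAP1 and 41.4% for ERAP2.

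NLRC5 (ENSG00000140853), the transactivator of the set, lies at 56989485 to 57083524 of chromosome 16 (plus strand). It was at 108, 104 and 92.1 CPM in control libraries 1, 2 and 3 and at 111, 106 and 116 CPM in STING libraries 1, 2 and 3. STING library 2 lay below the highest control library, so the groups overlapped. The means were 102 ± 8.44 and 111 ± 4.90 CPM (SD, n = 3), with a log2 fold change of 0.13 (SE 0.059, 95% interval 0.004 to 0.26, edgeR adjusted p = 0.325). Without control library 3, the lowest of the 6, the estimate was 0.064. The related transactivator of class II genes, CIITA, was at 4.52 ± 1.68 and 2.82 ± 0.192 CPM (log2 fold change −0.68, edgeR adjusted p = 0.179).

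**Figure D4:**
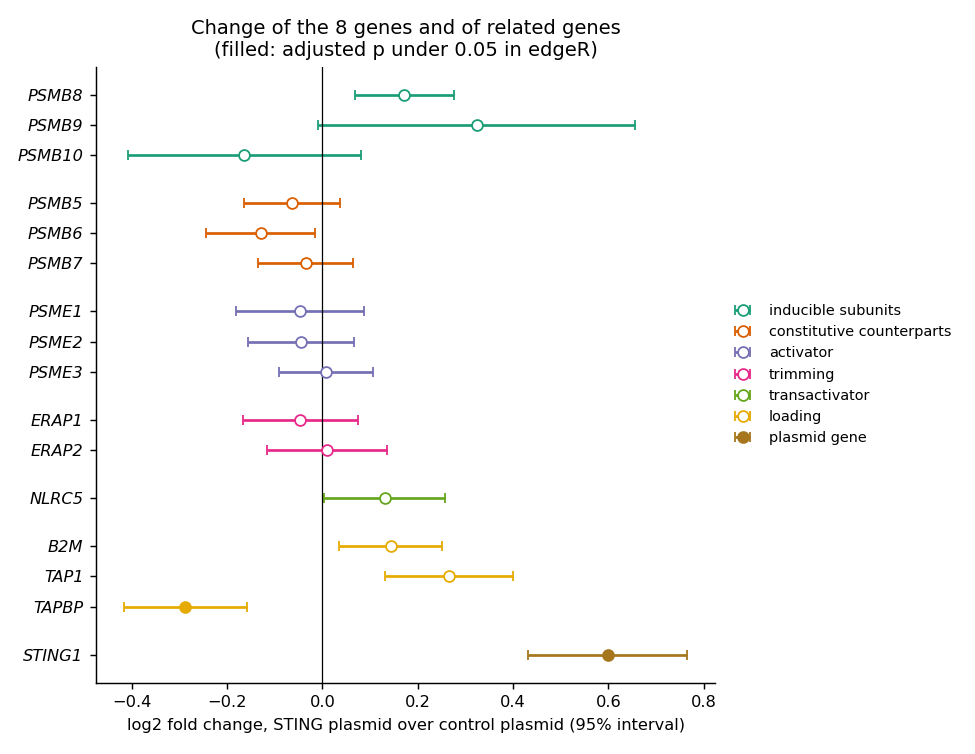
Log2 fold changes of the 8 genes, of their counterparts and of related genes with 95% intervals from edgeR, with filled points for adjusted p under 0.05. Among the genes drawn only TAPBP and STING1 are filled, and the interval of PSMB8 lies above 0.

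Levels within the set differed several-fold and are compared here per length. In the controls the highest FPKM values were those of PSME1 (37.4 ± 1.18), PSME2 (36.8 ± 0.475) and PSMB8 (36.2 ± 1.11), whose libraries overlapped. ERAP2 followed at 16.9 ± 0.664. ERAP1 (13.8 ± 0.543) and PSMB10 (13.8 ± 0.705) overlapped each other, PSMB9 came just below at 12.2 ± 1.13, and NLRC5 was the lowest at 7.51 ± 0.691. With mean GENCODE transcript lengths the order changed, with PSME2 at 164, PSMB8 at 104 and PSME1 at 82.0 CPM per kb in the controls, and PSMB10 the lowest at 29.1. The order within the set therefore rests on the gene models.

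One library stood out across the set. STING library 2 had the lowest level of the 3 STING libraries in 8 of the 8 genes, whereas it was the lowest in 33.0% of all tested genes. Control library 3 was the lowest control in 7 of the 8 genes, against 33.5% of all tested genes. After GC and length correction these numbers were 7 and 6 of 8. The slope of level on GC content was −0.0738 in STING library 2 and 0.0218 in control library 3 (log2 scale, per 10% of GC). The genes share the libraries and are not independent, and what lay behind the order of these libraries was not tested.

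Other proteasome genes gave no calls. None of the 46 tested genes of the 4 lists for constitutive catalytic subunits, other core subunits, the regulatory particle and assembly factors passed the test. The share over all tested genes was 1.49%. Among 11 other core subunits 4 estimates were positive and 7 negative (median log2 fold change −0.04). PSMB3 and PSMA7, core subunits without catalytic sites, had estimates of −0.16 (edgeR adjusted p = 0.138) and −0.12 (edgeR adjusted p = 0.215). Among 22 genes of the regulatory particle, which unfolds substrates, 12 estimates were positive and 10 negative (median 0.005). PSMD2, its abundant scaffold subunit, was at 1102 ± 7.82 and 993 ± 40.4 CPM (log2 fold change −0.15, edgeR adjusted p = 0.0889), and PSMD5 had an estimate of 0.12 (edgeR adjusted p = 0.241).

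Among 10 assembly factors and other activators 0 had an unadjusted p under 0.05, with PSMG4 at a log2 fold change of 0.13 and PSME4 at −0.06. The same held for 9 other peptidases that act on antigen precursors. LAP3, a cytosolic leucine aminopeptidase inducible by interferon, had an estimate of 0.15 (edgeR adjusted p = 0.433). LNPEP, the endosomal relative of ERAP1 and ERAP2, had one of 0.08 (edgeR adjusted p = 0.474).

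Regulators of these genes did not pass the test either, with 0 of 20 called, against 1.49% of all tested genes. There were 10 positive and 10 negative estimates, with a median of 0.01. IRF1, the interferon-induced factor that binds ISRE-type sites, was at 95.6 ± 6.27 and 103 ± 3.98 CPM (log2 fold change 0.11, edgeR adjusted p = 0.397). NFE2L1, which drives constitutive proteasome genes when proteasomes fail, had a log2 fold change of −0.06, and ATF1 one of 0.17. Unadjusted p under 0.05 was reached by 5 of the 20, against 14.4% of all tested genes, and of the 5 CIITA had the smallest.

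The peptide loading genes, many of them known NLRC5 targets, were measured alongside. The test called 4 of 13 higher and 1 lower, and 8 missed the threshold (median log2 fold change 0.14). Over all tested genes 0.604% were called higher and 0.89% lower. HLA-C, HLA-B and HLA-F, which encode class I heavy chains, rose by 0.27, 0.39 and 0.31 on the log2 scale (edgeR adjusted p of 0.0213, 0.0214 and 0.029), and TAPBP, which bridges the transporter and the class I molecule, fell by 0.29 (edgeR adjusted p = 0.0307). B2M, the light chain of class I molecules, had a log2 fold change of 0.14 (edgeR adjusted p = 0.189). HLA genes are highly similar, so reads can be split between them. No test compared the loading genes with the 8 genes themselves.

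**Figure D5:**
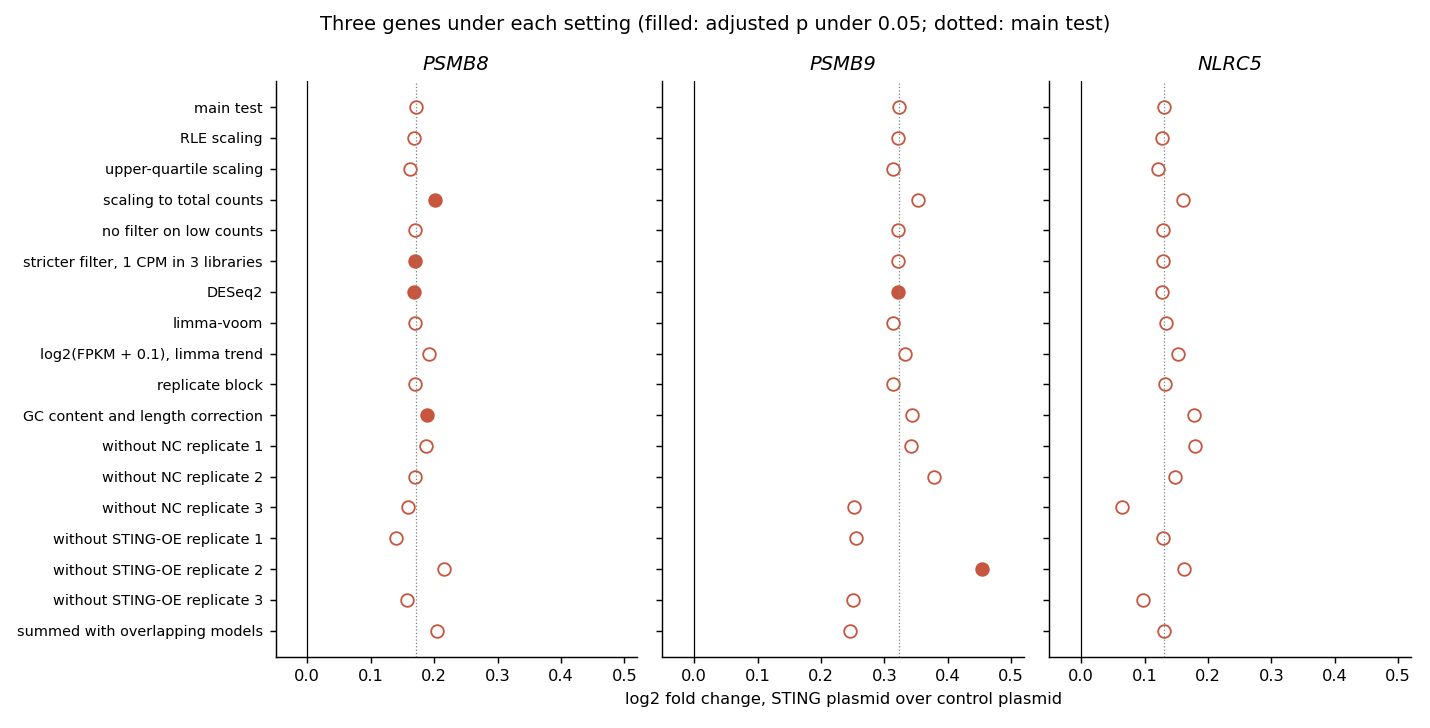
Log2 fold change of PSMB8, PSMB9 and NLRC5 under the main test and 17 other settings, filled where the adjusted p was under 0.05. PSMB8 stays between 0.14 and 0.22 and is filled under 4 settings, PSMB9 moves between 0.25 and 0.45, and NLRC5 is never filled.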

How the data were processed

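RNA was sequenced from 6 libraries of U251 cells, 3 per plasmid. The submitters' processing notes name Bowtie 0.12.2, with counter, annotation and strandedness not given in the sources used here. The authors deposited, per the file headers, raw read counts and FPKM values per Ensembl gene. GENCODE v29 held 40903 of the 42307 gene IDs. Start or end matched to 1 base for 89.8% of them, and coordinates are therefore printed as GRCh38. Promoter sequences are from RefSeq.

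Counts were fitted with edgeR 4.0.16 in R 4.3.3 over all genes (filterByExpr, TMM, robust quasi-likelihood test, Benjamini-Hochberg adjustment, threshold 0.05), both groups of 3 without covariates. Standard errors are the log2 fold change over the root of F. Deposited FPKM were used for ratios and levels per length. Settings tried instead were scaling by RLE, upper quartile or total counts, no filter and a stricter filter (1 CPM in 3 libraries), DESeq2 1.42.0, limma-voom 3.58.1, log2(FPKM + 0.1) with limma, offsets for GC content and length, the replicate number as a block, sums with overlapping models, and each library left out. GENCODE lengths were added after the data were seen. The procedure was tested on simulated data, where the median estimate lay close to the change put in. A high share of calls was required only for the largest change put in. False calls were slightly above the nominal rate when each gene kept its own spread. The share called at sizes like those of the 8 members is not reported here. Named genes were the 8 members, STING1, the counterparts PSMB5, PSMB6, PSMB7 and PSME3, IRF1, NFE2L1, overlapping models, and per list the called genes and the 2 with the smallest p. Markers are named from their lists. The members and lists were chosen with earlier results of these data known. The chi-square between replicates was 11.9 to 23.4 per gene, so no pair was counted as 1 library. Some genes of this rule and of the lists are not reported here.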

Additional observations from a re-analysis of the deposited data

How the results depend on the processing

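The number of called genes (324, 131 higher and 193 lower) was 686 with the stricter filter (274 and 412), 1032 with DESeq2 (420 and 612), 137 with limma-voom (58 and 79), 13 on log2(FPKM + 0.1) (10 and 3) and 120 with the replicate number as a block (55 and 65). Scaling to total counts gave 246 higher and 138 lower genes, and GC and length correction gave 307 lower. With 1 library left out the number ran from 60 to 741, with 34 to 260 higher and 26 to 481 lower. It rose without STING library 1 (741) and was lower without each of the other 5. The cause was not tested. Of the 8 genes 0 were called in the main test, 1 with total counts, 1 with the stricter filter, 1 with GC and length correction and 2 with DESeq2, all higher, and 0 to 1 with 1 library left out. The 5 called genes of the pathway lists became 9 with DESeq2, 1 with limma-voom, 1 with the replicate block and 0 on log2(FPKM + 0.1), and 0 to 3 with 1 library left out. With 1 library left out PSME1 ran from −0.1191 to 0.01588 and PSME2 from −0.0925 to 0.009471, both positive only without STING library 2. ERAP2 ran from −0.06774 to 0.05544, negative without control library 3 (−0.01878) or STING library 3, and was −0.04211 after GC and length correction. The log2 ratio difference of PSME1 to PSME2 ran from −0.03768 to 0.01858 with 1 library left out, and that of PSMB10 to PSMB7 from −0.2309 to −0.02097. Same-numbered libraries had correlations of 0.132, 0.118 and 0.002 in their deviations from the group means. Those of differently numbered libraries ran from −0.143 to 0.0557. The values 0.132 and 0.118 exceeded the limit of 0.1 set for this check, and 0.002 did not. The labels do not say that a number marks a shared culture, and the main test did not take the numbers as pairs. With the replicate block 0 of the 8 genes were called. For the ratios the block replaced the permutation by sign changes within pairs, where p cannot go below 0.25.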

Other observations

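PSMB9 varied most among the 8 genes over the 6 libraries. The 3 genes whose level moved most like it were H2BC12, a histone gene, IL36RN, a receptor antagonist of the interleukin family, and the cytokine IL6. They were chosen among 11387 genes by the root mean square difference of centred log2 CPM, which was 0.0685, 0.0727 and 0.0759. IL6 was at 12.9, 14.5 and 11.7 CPM in the control libraries and 16.2, 13.6 and 16.3 CPM in the STING libraries, with control library 3 and STING library 2 the lowest of their groups, as for PSMB9. This likeness is a description over 6 libraries that also share depth and base composition.

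Of 12678 tested genes with a RefSeq promoter window, 533 held the ISRE letters. Of these 7 were called higher and 7 lower, 2.63% in all, against 1.77% of all 12678, and their median log2 fold change was 0.02.

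RNF31 and AL136295, which overlap each other next to PSME2, gave opposite counts within groups. RNF31 was at 22.1, 9.97 and 30.8 CPM in the control libraries, where AL136295 was at 57.5, 87.7 and 43.2 CPM. In the STING libraries RNF31 was at 10.8, 28.3 and 21.2 CPM and AL136295 at 84.3, 45.1 and 69.3 CPM.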
